A study of Homo sapiens with 4 samples.

Results

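The EGR, KLF and IER response factors are 10 human genes whose transcripts are made soon after a cell receives a growth or stress signal. They were picked by symbol and comprise EGR1, EGR2 and EGR3, IER2 and IER3, the phosphatase gene DUSP1, and KLF2, KLF4, KLF6 and KLF10. Their symbols stand on 15 of the 26468 loci in the deposited tables. In the comparisons they are 10 of 12183 genes, which are the symbols that reached 1 FPKM somewhere among the libraries. FPKM scales fragments by transcript length and by the mapped fragments of a library, so levels of different genes can be compared per length.

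EGR proteins are zinc finger activators that bind GC-rich DNA, and KLF proteins are zinc finger factors that bind GC-rich and CACC sites. In fibroblasts, serum and growth factors act through RAS and the kinase ERK on serum response factor and its ETS partners, which switch on EGR and IER genes within minutes without new protein synthesis. DUSP1 removes phosphate from p38, JNK and ERK kinases and so limits the same signals. KLF2 and KLF4 are also known as flow-induced factors of endothelium, and KLF10 as an early response gene of TGF-beta.

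Poly(A) RNA was sequenced from IMR90 cells, a line of human fetal lung fibroblasts, with 1 library in each of 4 groups. In the OIS library (oncogene-induced senescence) the cells carried a retroviral H-RasV12 joined to the estrogen receptor domain and received 10 nM tamoxifen for 8 days. In the H3.3cs1 late and H3.3cs1 early libraries the cells expressed, from a retrovirus, the cleaved form of histone H3.3 with a Flag tag and were taken at day 13 and day 3 after infection. The Growing library came from cells with the empty retroviral vector pBabe, taken at day 13. All cells were at passage 16 and were lifted with trypsin before RNA was taken. No empty-vector library of day 3 and no library of vector cells on tamoxifen was analysed here, so time after infection and tamoxifen cannot be told apart from the groups they go with.

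With 1 library in each group, a difference describes a pair of libraries and has neither a test nor an error. Differences are given on the scale log2(FPKM + 1), which understates the change of low genes, and rose and fell are used of genes that differed by at least 2-fold on it. Between 11063 and 11271 compared genes per library reached an FPKM of 1. Fragment counts were not used here, so no counting interval can be given. Relative depth, read from the commonest ratio among loci under 0.2 FPKM, was roughly 85.3% in OIS, 74.2% in H3.3cs1 late and 96.6% in H3.3cs1 early of that in Growing. Loci without a gene name held between 47.4% and 57.9% of the summed FPKM and were left out. HRAS was listed at 3153 FPKM in OIS, 41.9 in H3.3cs1 late, 49.8 in H3.3cs1 early and 47.4 in Growing, which matched the RAS label. The H3.3 gene H3F3B was at 90.5 FPKM in OIS, 450 in H3.3cs1 late, 229 in H3.3cs1 early and 105 in Growing, and H3F3A at 236, 132, 130 and 190 in the same order. All 10 fibroblast markers, COL1A1 and VIM among them, were above 1 FPKM in every library. Their summed level was 5033 FPKM in OIS, 11472 in H3.3cs1 late, 6201 in H3.3cs1 early and 10849 in Growing, and 6 of the 10 fell in OIS, while 0 of 10 housekeeping genes rose or fell there (1 after rescaling to the same sum or quantile normalization). The part of this in the values below was not tested. Of 8 leukocyte markers only CD68, listed in a joined locus with MPDU1, reached 1 FPKM, and the summed level was between 39.6 and 90.0 FPKM. Giving all libraries an equal total over the named loci moved the median of all genes to -0.16 in OIS, -0.033 in H3.3cs1 late and 0.19 in H3.3cs1 early against Growing, beside 0.032, -0.040 and -0.025 as deposited. With that rescaling the share of changed genes that were higher was 37.7% in place of 52.8% for OIS, 48.3% in place of 26.1% for H3.3cs1 early and 40.1% in place of 39.1% for H3.3cs1 late, all against Growing. It was 36.4% in place of 61.7% for H3.3cs1 late against H3.3cs1 early, and 41.3% in place of 56.8% for OIS against H3.3cs1 late.

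**Figure D1:**
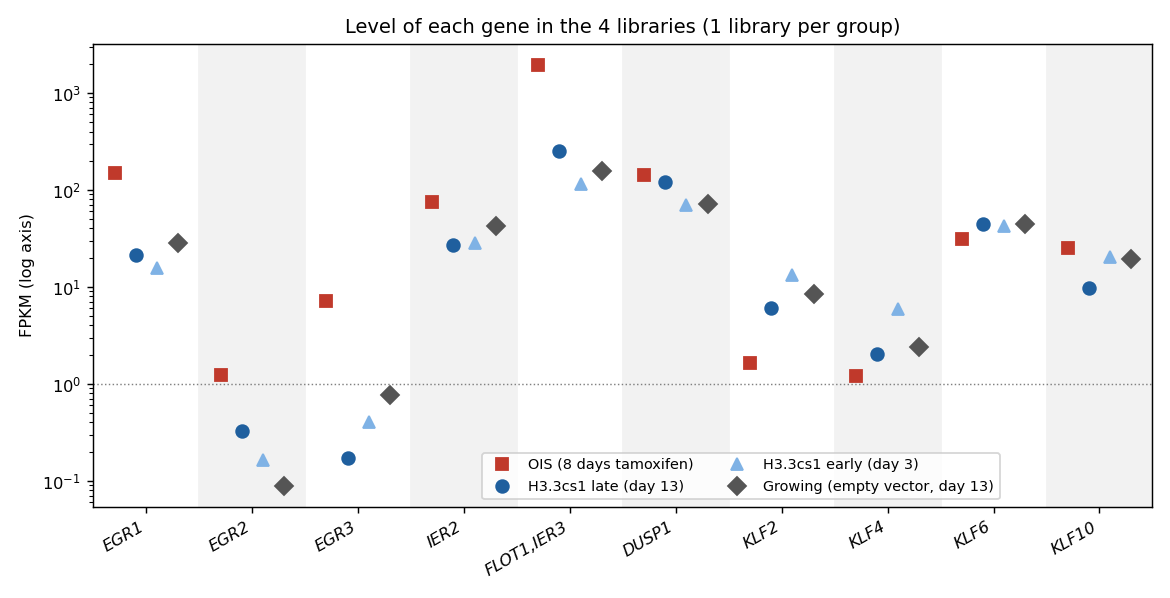
Level of each gene in FPKM (log axis) in the OIS, H3.3cs1 late, H3.3cs1 early and Growing libraries, 1 point per library, with a dotted line at 1 FPKM. OIS holds the highest point of EGR1 (151), EGR3 (7.19) and the FLOT1,IER3 locus (1941) and the lowest of KLF2 (1.63) and KLF4 (1.21).

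In OIS the EGR genes and the locus with IER3 stood above Growing, while KLF2 stood below it. Of the 10 genes 4 rose by at least 2-fold, against 9.13% of all compared genes, and 1 fell, against 8.17%, so that 5 changed, against 17.3% either way. The median difference of the 10 was 0.89, beside 0.032 over all compared genes. EGR2 and EGR3 entered the comparison only through OIS, where alone they reached 1 FPKM, so the count of 4 includes genes that the filter kept because they were high there. In H3.3cs1 late 0 of the 10 rose or fell, against 3.51% of all compared genes higher, 5.47% lower and 8.99% either way, with a median of -0.28 beside -0.040. In H3.3cs1 early 1 of the 10 rose, KLF4, against 1.40% of all compared genes, and 0 fell, against 3.96%, beside 5.37% either way. The median of the 10 was then -0.059, beside -0.025. These 3 comparisons share the Growing library.

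**Figure D2:**
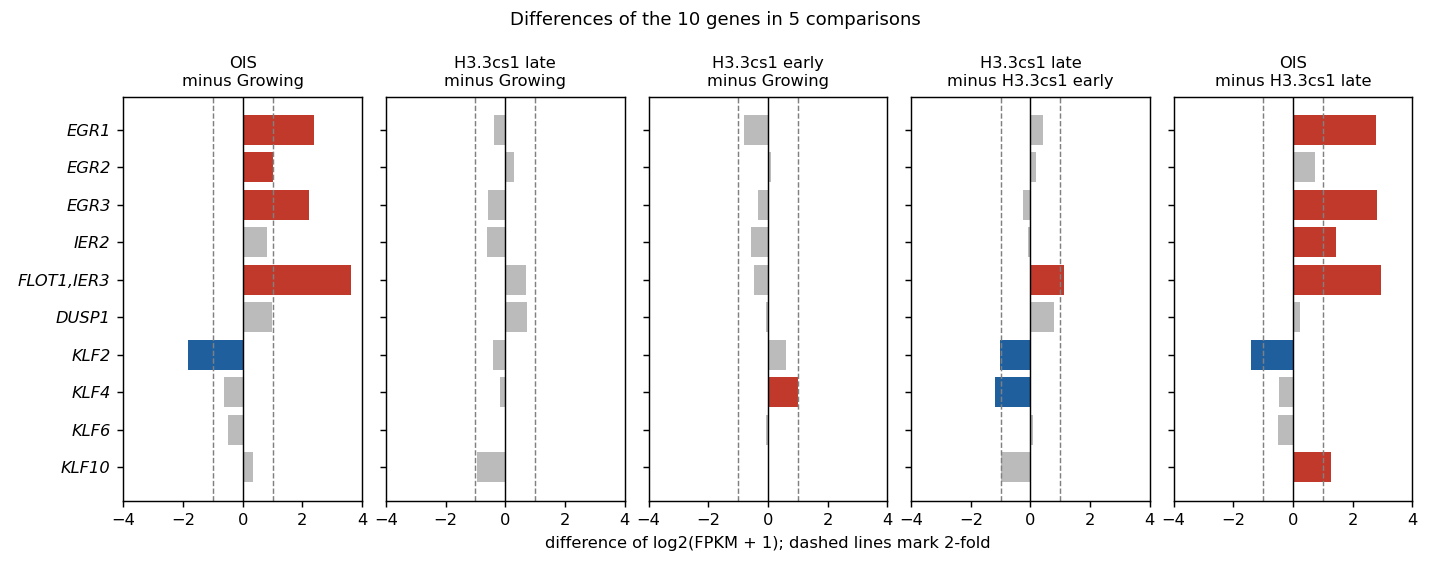
Difference of log2(FPKM + 1) for each gene in 5 comparisons, with bars in red for at least 2-fold higher, in blue for at least 2-fold lower and in grey for less than 2-fold; dashed lines mark 2-fold. The OIS comparisons hold the longest bars, up to 3.63 for the FLOT1,IER3 locus, and H3.3cs1 late minus Growing has none past the lines.

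EGR1 encodes the founding member of the family, induced by serum, wounding and RAS signalling. It stood at 151 FPKM in OIS, 21.2 in H3.3cs1 late, 15.8 in H3.3cs1 early and 28.2 in Growing. OIS was thus the high library, and both H3.3cs1 libraries lay below Growing. The difference was 2.38 for OIS minus Growing, a 5.21-fold rise that ranked 220 of 12183 from the top. Against Growing, EGR1 differed by -0.39 in H3.3cs1 late and -0.80 in H3.3cs1 early, both under 2-fold. By level it ranked 529 of the compared genes in OIS and 2612 in Growing.

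EGR3 encodes a relative that binds the same kind of site. Its level was 7.19 FPKM in OIS, 0.174 in H3.3cs1 late, 0.403 in H3.3cs1 early and 0.758 in Growing. Only OIS reached 1 FPKM. EGR3 rose 4.66-fold in OIS (difference 2.22), and the plain ratio of FPKM was 9.48. In H3.3cs1 late it differed from Growing by -0.58 on the log2(FPKM + 1) scale, but by a plain ratio of 0.229, between values that are each under 1 FPKM.

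EGR2, known for its role in Schwann cell myelination, was low throughout, at 1.22 FPKM in OIS, 0.330 in H3.3cs1 late, 0.164 in H3.3cs1 early and 0.0892 in Growing. OIS was again highest. The rise of 2.04-fold in OIS was just past 2-fold and was just under it after rescaling to the same sum (difference 0.90) and after centring on the median (0.998), against 1.03 as deposited. With a pseudocount of 5 in place of 1 it was 0.29. Its order in the 4 libraries differed from that of EGR1 and EGR3, since Growing was its lowest library.

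Promoter windows of EGR1 and EGR2 are shown because both genes were highest in OIS and carry the CArG box, the element bound by serum response factor. RefSeq windows of GRCh38.p14, from 250 bases before to 50 after a gene start, were used for 7 of the 10 genes. Windows of the 10 genes on 1 chromosome were left out before the search, but the share over all windows given below includes that chromosome. For EGR3, IER3 and KLF10 no window was searched, so these genes cannot be said to lack a CArG box. Each window shown is printed 5′ to 3′ on the strand of its gene. EGR1 lies on the plus strand at chr5:138465229-138465528. EGR2 lies on the minus strand, and of its 3 listed starts the window shown, chr10:62816317-62816616, is the only one with a CArG box. The deposited tables were made on hg19 and give no position, so these coordinates belong to the RefSeq table. Capitals mark the CArG boxes, CC and GG around 6 bases of A or T.
EGR1: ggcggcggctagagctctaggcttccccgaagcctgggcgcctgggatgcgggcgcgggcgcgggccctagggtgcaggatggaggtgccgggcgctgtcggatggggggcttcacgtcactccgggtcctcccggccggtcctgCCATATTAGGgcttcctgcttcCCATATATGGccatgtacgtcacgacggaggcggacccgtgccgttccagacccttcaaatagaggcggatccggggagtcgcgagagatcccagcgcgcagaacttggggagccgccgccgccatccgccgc
EGR2: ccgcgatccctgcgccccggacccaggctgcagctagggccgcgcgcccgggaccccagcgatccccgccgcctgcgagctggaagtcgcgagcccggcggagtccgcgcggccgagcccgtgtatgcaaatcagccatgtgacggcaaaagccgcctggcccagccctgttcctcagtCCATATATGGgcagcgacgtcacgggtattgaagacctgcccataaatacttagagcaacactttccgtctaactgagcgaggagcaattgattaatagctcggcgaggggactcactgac
The EGR1 window holds 2 boxes, which begin 105 and 83 bases before the start, and the EGR2 window holds 1, which begins 71 bases before it. Of all 35116 windows, 1.29% hold a CArG box on either strand. No CArG box was found in the windows of IER2, DUSP1, KLF2, KLF4 and KLF6, which says only that these letters are not in those windows. The part of the motifs in this and the later windows in the levels of the genes was not tested.

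**Figure D3:**
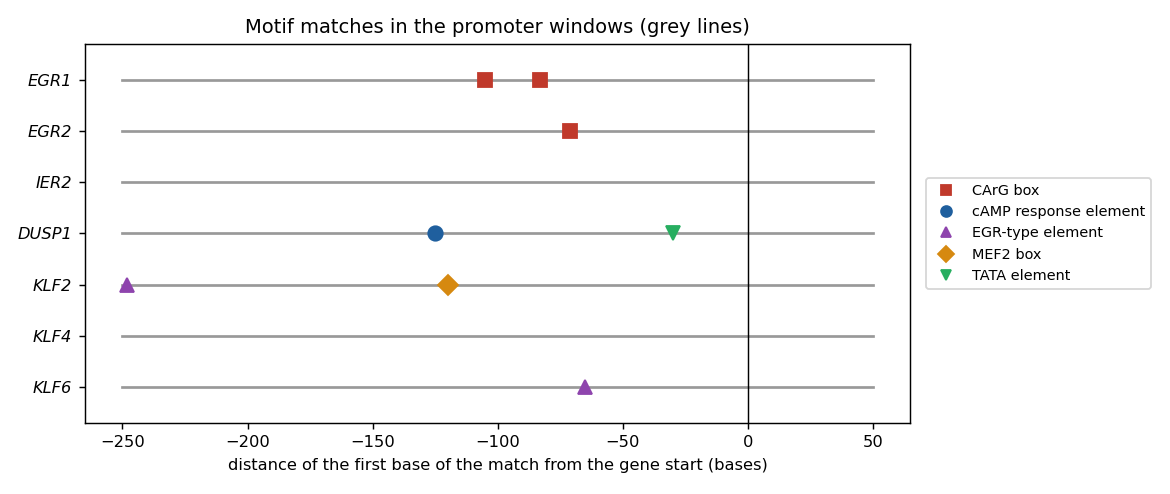
Motif matches in the promoter windows of 7 genes, placed by the distance of their first base from the gene start (bases, grey lines span each window). For EGR2 only the start with a CArG box is drawn. CArG boxes lie 105 and 83 bases before the start of EGR1 and 71 before that of EGR2, and IER2 and KLF4 have no match to the motifs searched.

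The proteins NAB1 and NAB2 bind EGR factors and repress them, and NAB2 is known as an EGR target. They did not move together in OIS. NAB1 stood at 22.4 FPKM in OIS, 3.78 in H3.3cs1 late, 5.64 in H3.3cs1 early and 6.66 in Growing, a 3.05-fold rise in OIS. NAB2 stood at 26.8 FPKM in OIS, 10.4 in H3.3cs1 late, 22.7 in H3.3cs1 early and 35.3 in Growing. It was thus under 2-fold from Growing in OIS (difference -0.39), while EGR1 was 5.21-fold higher. In H3.3cs1 late NAB2 fell 3.19-fold. The other genes on this list, EGR4 and WT1, did not reach 1 FPKM in any library. Of 7 reported EGR1 target genes, NAB2 included, 4 rose and 0 fell in OIS (9.13% and 8.17% over all compared genes), with a median of 1.41. PDGFB, 1 of the 4, passed the filter through OIS alone and was under 2-fold with a pseudocount of 5 (0.51), where the median was also 0.51. VEGFA, an angiogenic growth factor, was at 177 FPKM in OIS and 20.4 in Growing (8.32-fold), FGF2, a fibroblast growth factor, at 111 against 15.7 (6.72-fold), and F3, tissue factor, at 344 against 129 (2.66-fold). PDGFB, a platelet-derived growth factor chain, also rose, with 2.16 FPKM in OIS and 0.0419 in Growing. In H3.3cs1 late 1 of the 7 rose and 1 fell, against 3.51% and 5.47% of all compared genes. F3 was at 317 FPKM, 2.45-fold above Growing, and NAB2 fell as given above. In H3.3cs1 early 0 of the 7 rose and 1 fell, against 1.40% and 3.96%. The gene that fell was F3, at 33.9 FPKM.

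IER3, also called IEX-1, encodes a short-lived regulator of cell death and is induced by NF-kappaB and ERK. The tables list it under a locus joined with its neighbour FLOT1, which encodes the membrane scaffold flotillin 1, and on 5 further lines that are listed at 0 in every library. The joined FLOT1,IER3 locus stood at 1941 FPKM in OIS, 251 in H3.3cs1 late, 114 in H3.3cs1 early and 156 in Growing. How much of this came from IER3 and how much from FLOT1 cannot be told apart. The locus rose 12.3-fold in OIS (difference 3.63), ranked 89 of 12183 from the top, and in OIS was the 26th most abundant of the compared genes.

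NF-kappaB response genes, counted because IER3 is known as one, had 7 of 8 members higher and 0 lower in OIS (median 2.17, all genes 0.032). The shares over all compared genes were 9.13% and 8.17%. The joined ICAM1,ICAM4 locus, which holds an adhesion molecule, rose 46.7-fold, and SOD2, the mitochondrial superoxide dismutase, rose 10.0-fold. TNFAIP3, a brake on NF-kappaB, rose 5.22-fold and BIRC3, an inhibitor of cell death, rose 4.88-fold. NFKB2, 1 of the 7, was under 2-fold in OIS after rescaling to the same sum (0.98). With joined loci left out the ICAM1,ICAM4 locus has no value. In H3.3cs1 late 0 of the 8 rose and 2 fell (3.51% and 5.47% over all compared genes). TNFAIP3 fell by 2.26-fold and NFKBIA, the inhibitor IkappaB-alpha, by 2.13-fold. Both were under 2-fold with a pseudocount of 5 (-0.49 and -0.78), and 4 of the 8 were past it with 0.1. In H3.3cs1 early 0 of the 8 rose or fell, against 5.37% of all compared genes either way, and 1 was past 2-fold with a pseudocount of 0.1.

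IER2, a nuclear protein encoded by an immediate early gene of uncertain biochemical function, stood at 74.7 FPKM in OIS, 26.8 in H3.3cs1 late, 28.3 in H3.3cs1 early and 42.0 in Growing. OIS was the highest library and both H3.3cs1 libraries lay below Growing, the same order of sides as for EGR1. None of these differences from Growing reached 2-fold, with 0.82 in OIS, -0.63 in H3.3cs1 late and -0.55 in H3.3cs1 early. Set directly against H3.3cs1 late, IER2 was 2.72-fold higher in OIS.

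DUSP1, also called MKP-1, was at 142 FPKM in OIS, 120 in H3.3cs1 late, 69.4 in H3.3cs1 early and 72.1 in Growing. The OIS and late libraries were close to each other, and the early library was close to Growing. OIS lay 1.96-fold above Growing, just short of 2-fold, and H3.3cs1 late 1.66-fold above it. Among the 10 genes DUSP1 had the largest positive difference in H3.3cs1 late, 0.73, and its difference of OIS minus H3.3cs1 late was only 0.24. The DUSP1 promoter window lies on the minus strand at chr5:172771146-172771445 of GRCh38.p14. It is shown because it holds no CArG box and DUSP1 stood above Growing, though under 2-fold, in both OIS and H3.3cs1 late. The part of any motif in the DUSP1 levels was not tested. Capitals mark the cAMP response element TGACGTCA and the element TATAAA.
DUSP1: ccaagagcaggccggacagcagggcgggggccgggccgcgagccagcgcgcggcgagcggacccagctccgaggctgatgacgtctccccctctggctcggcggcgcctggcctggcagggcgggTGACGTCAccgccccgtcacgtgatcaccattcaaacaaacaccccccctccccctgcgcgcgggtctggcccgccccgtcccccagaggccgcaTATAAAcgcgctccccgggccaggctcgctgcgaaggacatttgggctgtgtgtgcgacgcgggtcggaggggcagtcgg
TGACGTCA begins 125 bases before the start and is held by 1.85% of the 35116 windows, and TATAAA begins 30 bases before it and is held by 11.5% on either strand.

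Other dual specificity phosphatases of the MAP kinases were counted beside DUSP1. Of 10 listed, 9 passed the filter, and in OIS 5 rose and 0 fell (9.13% and 8.17% over all compared genes), with a median of 1.20. DUSP2 and DUSP4, which are 2 of the 5, passed the filter through OIS alone. The median was 0.79 with no filter and 0.45 with a pseudocount of 5, and 3 rose with that pseudocount. DUSP6, which acts on ERK in the cytoplasm, rose 13.6-fold, with 270 FPKM in OIS and 18.9 in Growing. DUSP4 rose 7.52-fold and DUSP5 4.74-fold, both nuclear phosphatases that act on ERK. DUSP10, which acts on JNK and p38, was at 10.7 FPKM in OIS, 19.2 in H3.3cs1 late, 28.8 in H3.3cs1 early and 21.8 in Growing. On the log2(FPKM + 1) scale it was under 2-fold from Growing in each, though close to it in OIS (-0.96). In H3.3cs1 late 1 of the 9 rose and 0 fell, against 3.51% and 5.47% of all compared genes. It was DUSP8, at 4.69 FPKM against 1.83 in Growing (a difference of 0.51 with a pseudocount of 5). DUSP8 drops out where 5 FPKM are required. In H3.3cs1 early 0 of the 9 rose or fell, against 5.37% either way. The 6 kinase genes whose products are DUSP1 substrates had a median of 0.29 in OIS. MAPK11, a p38 kinase, rose 2.07-fold in OIS and 2.07-fold in H3.3cs1 early, but both were under 2-fold with a pseudocount of 5, at 0.77. The OIS rise was also under 2-fold after rescaling to the same sum (0.83) and after quantile normalization (0.99).

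KLF2 was the gene of the 10 that fell in OIS. It stood at 1.63 FPKM in OIS, 6.06 in H3.3cs1 late, 13.4 in H3.3cs1 early and 8.47 in Growing. OIS was the low library and H3.3cs1 early the high one. The fall in OIS was 3.60-fold on the log2(FPKM + 1) scale (difference -1.85) and ranked 319 of 12183 from the bottom. H3.3cs1 early lay 0.61 above Growing and H3.3cs1 late 0.42 below it (-0.42), both under 2-fold. The KLF2 window, on the plus strand at chr19:16324576-16324875 of GRCh38.p14, is shown because KLF2 went against the EGR genes in OIS. Capitals mark GCGGGGGCG, a form of the EGR binding site, and the MEF2 box, the site of MEF2 factors, through which the kinase ERK5 is known to act on KLF2 in endothelium.
KLF2: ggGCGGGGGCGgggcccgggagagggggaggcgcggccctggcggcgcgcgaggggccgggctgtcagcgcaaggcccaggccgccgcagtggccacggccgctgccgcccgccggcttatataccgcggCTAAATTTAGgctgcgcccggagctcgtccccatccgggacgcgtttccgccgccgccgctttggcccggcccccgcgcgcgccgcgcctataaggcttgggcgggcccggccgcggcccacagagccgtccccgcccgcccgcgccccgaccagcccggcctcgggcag
GCGGGGGCG begins 248 bases before the start, and the MEF2 box 120 bases before it. The letters GCGGGGGCG stand on either strand in 5.07% of the 35116 windows, and a MEF2 box in 0.572%. KLF6 also holds GCGGGGGCG, 65 bases before its start, and GCGTGGGCG, searched as the other form, was in none of the 7 genes' windows and in 0.795% of all windows.

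On the log2(FPKM + 1) scale, 0 of the 5 genes of the ERK5 and MEF2 axis rose or fell against Growing in OIS, H3.3cs1 late or H3.3cs1 early. Over all compared genes the shares either way were 17.3%, 8.99% and 5.37% in that order. With a pseudocount of 0.1, 1 of the 5 was past 2-fold in OIS and 1 in H3.3cs1 late. The part of this axis in the KLF2 values was not tested. MAPK7, which encodes ERK5, was at 9.90 FPKM in OIS, 17.4 in H3.3cs1 late, 14.6 in H3.3cs1 early and 14.5 in Growing. Its differences were -0.51 in OIS, 0.25 in H3.3cs1 late and 0.0053 in H3.3cs1 early. MEF2A and MEF2D lay between 7.98 and 17.7 FPKM in all libraries. MEF2C, which passed the filter through OIS alone, was at 2.31 FPKM in OIS, 0.236 in H3.3cs1 late, 0.706 in H3.3cs1 early and 0.907 in Growing. Its differences from Growing were 0.80 in OIS, -0.63 in H3.3cs1 late and -0.16 in H3.3cs1 early. Endothelium is a cell type in which KLF2 is abundant, and 10 of its markers were summed. Their summed level was above Growing in OIS, where KLF2 was below it, and below Growing in both H3.3cs1 libraries. It was 22.5 FPKM in OIS, 1.52 in H3.3cs1 late, 2.53 in H3.3cs1 early and 3.32 in Growing, and in OIS TIE1, CLDN5 and ROBO4 rose. TIE1 and CLDN5 passed the filter through OIS alone, and with a pseudocount of 5 TIE1 (0.68) and ROBO4 (0.61) were under 2-fold. CDH5, which encodes the endothelial cadherin, was listed at 0 in all 4 libraries and PECAM1 in all but OIS. The part of these markers in the KLF2 values was not tested.

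KLF4, a factor of epithelial differentiation and of reprogramming, stood at 1.21 FPKM in OIS, 2.04 in H3.3cs1 late, 5.89 in H3.3cs1 early and 2.41 in Growing. As for KLF2, OIS was lowest and H3.3cs1 early highest. KLF4 rose 2.02-fold in H3.3cs1 early, just past 2-fold, and ranked 164 of 12183 from the top of that comparison. With a pseudocount of 5 its difference of 1.02 was 0.56, under 2-fold. It differed by -0.62 in OIS and -0.16 in H3.3cs1 late, under 2-fold. Epithelial markers gave a summed level over 8 genes of 18.5 FPKM in OIS, 184 in H3.3cs1 late, 68.8 in H3.3cs1 early and 90.0 in Growing, most of it KRT18. KRT19 was, like KLF4, lowest in OIS and highest in H3.3cs1 early, with 0.160 FPKM in OIS, 3.13 in H3.3cs1 late, 10.9 in H3.3cs1 early and 2.33 in Growing, and rose 3.56-fold in H3.3cs1 early. KRT8 and KRT18, the other markers that passed the filter, were also lowest in OIS but were highest in H3.3cs1 late, at 10.1 and 170 FPKM. In H3.3cs1 early they lay below Growing, at 6.50 and 50.9 FPKM against 7.50 and 80.0. The part of these markers in the KLF4 values was not tested.

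KLF6 and KLF10 gave the flattest profiles of the 10 against Growing in OIS. KLF6, a widely expressed factor, was at 31.2 FPKM in OIS, 44.6 in H3.3cs1 late, 42.3 in H3.3cs1 early and 44.2 in Growing. Both H3.3cs1 libraries were within 0.063 of Growing on the log2(FPKM + 1) scale (differences of 0.013 and -0.063), with signs that changed with the scaling. KLF10 was at 24.97 FPKM in OIS, 9.70 in H3.3cs1 late, 20.3 in H3.3cs1 early and 19.6 in Growing. Here H3.3cs1 late was the low library, 1.93-fold below Growing, the lowest difference of the 10 genes in that comparison and just short of 2-fold (-0.95). TGF-beta response genes, counted because KLF10 is one of that kind, had 3 of 6 higher in OIS, against 9.13% of all compared genes. In H3.3cs1 late 0 of the 6 were past 2-fold, against 8.99% of all compared genes either way. In OIS BHLHE40, a circadian repressor, rose 5.33-fold, TGIF1, a repressor of SMAD signalling, rose 2.81-fold, and SMAD7, an inhibitor of the pathway, rose 2.64-fold. In H3.3cs1 early BHLHE40 rose 2.04-fold, and its difference was 0.75 with a pseudocount of 5.

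Among 13 other KLF genes 8 passed the filter. In OIS 1 rose and 0 fell (9.13% and 8.17% over all compared genes). The gene that rose was KLF9, a glucocorticoid-induced factor, at 8.00 FPKM in OIS, 4.17 in H3.3cs1 late, 1.64 in H3.3cs1 early and 1.74 in Growing (3.28-fold in OIS). With a pseudocount of 5 its difference of 1.72 was 0.95, under 2-fold, and with 0.1 the count was 3. In both H3.3cs1 libraries 0 rose or fell against Growing, beside 8.99% of all compared genes in H3.3cs1 late and 5.37% in H3.3cs1 early. The count was 1 in each with a pseudocount of 0.1. It was also 1 in H3.3cs1 late after quantile normalization and in H3.3cs1 early after rescaling to the same sum. KLF3, a repressor, was at 6.78 FPKM in OIS, 2.72 in H3.3cs1 late, 7.93 in H3.3cs1 early and 5.17 in Growing, and was 2.40-fold lower at day 13 than at day 3, a call that is lost with a pseudocount of 5. KLF7 lay between 2.79 and 5.96 FPKM and KLF13 between 5.28 and 12.5, under 2-fold from Growing in each library on the log2(FPKM + 1) scale.

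**Figure D4:**
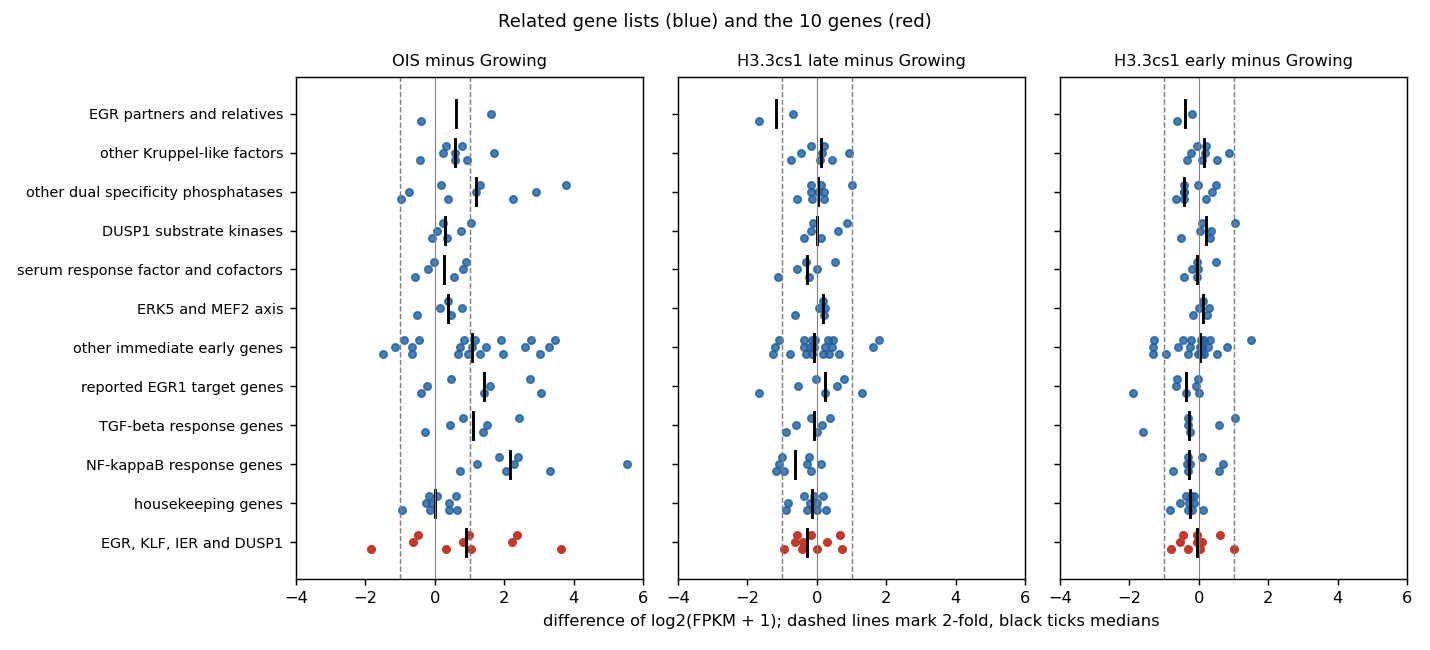
Difference of log2(FPKM + 1) from Growing in OIS, H3.3cs1 late and H3.3cs1 early for the genes of 11 related lists (blue, those that passed the filter) and for the 10 genes (red), 1 point per gene, with black ticks at the medians and dashed lines at 2-fold. In OIS the NF-kappaB response list has the median farthest to the right, at 2.17, while the housekeeping list lies at -0.0065.

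Of 21 other immediate early genes, 11 rose and 2 fell in OIS (9.13% and 8.17% over all compared genes), and the median was 1.08. FOS, FOSB and NR4A3, which are 3 of the 11, passed the filter through OIS alone. The median was 0.83 with a pseudocount of 5, 0.85 after rescaling to the same sum and 0.90 after quantile normalization. H3.3cs1 late had 2 higher and 3 lower (median -0.080), against 3.51% and 5.47% of all compared genes. With a pseudocount of 5, 3 of the 21 were past 2-fold there. H3.3cs1 early had 1 higher and 3 lower (median 0.019), against 1.40% and 3.96%. FOS, an AP-1 subunit, was at 16.0 FPKM in OIS, 0.473 in H3.3cs1 late, 0.662 in H3.3cs1 early and 0.557 in Growing. FOSB, another AP-1 subunit, rose 9.79-fold in OIS, JUNB 6.87-fold, and MCL1, a survival protein of the BCL2 family, 8.13-fold to 618 FPKM. The 2 that fell were CYR61, at 120 FPKM in OIS and 340 in Growing, and IER5L, at 4.55 and 11.3. With a pseudocount of 5 IER5L was under 2-fold (-0.77), and 10 of the 21 were past it in OIS. SRF, the serum response factor gene, was at 17.9 FPKM in OIS, 20.5 in H3.3cs1 late, 19.7 in H3.3cs1 early and 20.4 in Growing. Of SRF and 5 cofactor genes 0 rose or fell in OIS, against 17.3% of all compared genes either way. In H3.3cs1 late 1 fell, against 5.47%. It was ELK3, an ETS partner, at 14.1 FPKM against 32.1 in Growing (2.19-fold, and -0.96 on the log2 scale with a pseudocount of 5). ELK1, another ETS partner, was at 38.6 FPKM in OIS and 21.5 in Growing, ELK4 at 11.2 and 5.51, and the coactivator gene MKL1 at 9.61 and 14.9. All were under 2-fold on the log2(FPKM + 1) scale. With a pseudocount of 0.1, 1 gene of this list was past 2-fold in OIS.

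**Figure D5:**
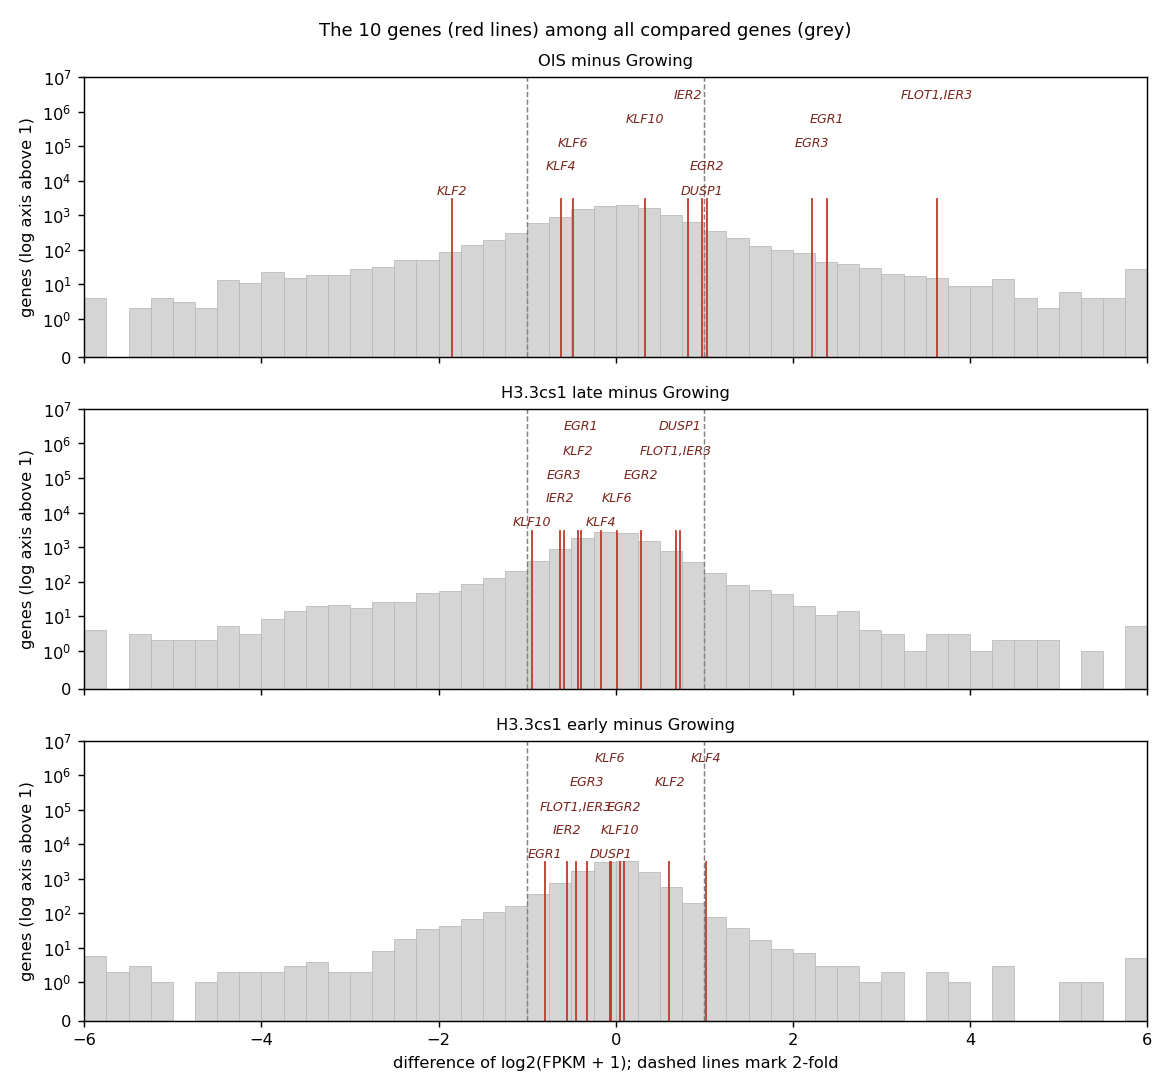
Number of compared genes by difference of log2(FPKM + 1) from Growing (grey bars of 0.25, log axis above 1, values beyond 6 in the end bars) in OIS, H3.3cs1 late and H3.3cs1 early, with red lines for the 10 genes and dashed lines at 2-fold. The FLOT1,IER3 locus, EGR1 and EGR3 lie far out on the right in OIS, at 3.63, 2.38 and 2.22, and all 10 lie between -0.95 and 0.73 in H3.3cs1 late.

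From day 3 to day 13 of H3.3cs1, the FLOT1,IER3 locus rose and KLF2 and KLF4 fell. Thus 1 of the 10 was higher, against 5.47% of all compared genes, and 2 were lower, against 3.40%, beside 8.87% either way. The FLOT1,IER3 locus stood at 251 FPKM at day 13 against 114 at day 3 (2.19-fold), a difference of 1.13 that was 0.88 after rescaling to the same sum and 0.81 after quantile normalization. KLF2 stood at 6.06 FPKM at day 13 against 13.4 at day 3 (2.04-fold lower), a difference of -1.03 that was -0.99 after centring on the median and -0.74 with a pseudocount of 5. KLF4 stood at 2.04 FPKM at day 13 against 5.89 at day 3 (2.26-fold lower), a difference of -1.18 that was -0.63 with a pseudocount of 5. KLF10 was 1.99-fold lower at day 13, just short of 2-fold (-0.99), and passed it after rescaling to the same sum (-1.23). DUSP1 was 1.72-fold higher at day 13, and EGR1, EGR2, EGR3, IER2 and KLF6 differed by between -0.26 and 0.41.

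Set directly against H3.3cs1 late, OIS had 5 of the 10 higher, against 11.2% of all compared genes, and 1 lower, against 8.51%, beside 19.7% either way. EGR3, 1 of the 5, passed the filter through OIS alone, so the count includes a gene kept because it was high there. The locus FLOT1,IER3 was 7.71-fold, EGR3 6.98-fold, EGR1 6.84-fold, IER2 2.72-fold and KLF10 2.43-fold higher in OIS, and KLF2 was 2.68-fold lower. With a pseudocount of 5 the KLF2 difference of -1.42 was -0.74, under 2-fold. DUSP1, with 142 FPKM in OIS and 120 in H3.3cs1 late, and KLF6, with 31.2 and 44.6, were among the 4 under 2-fold. OIS and H3.3cs1 late differed in vector, tamoxifen and time as well as in the gene expressed, and these cannot be told apart.

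By level per length, the 10 genes kept a wide range in each library. In OIS the order was the FLOT1,IER3 locus, EGR1, DUSP1, IER2, KLF6, KLF10, EGR3, KLF2, EGR2 and KLF4, between 1941 and 1.21 FPKM. In Growing it was the FLOT1,IER3 locus, DUSP1, KLF6, IER2, EGR1, KLF10, KLF2, KLF4, EGR3 and EGR2, between 156 and 0.0892 FPKM. EGR1 thus stood between the FLOT1,IER3 locus and DUSP1 in OIS, and between IER2 and KLF10 in Growing. With 1 library per group there is no spread against which neighbours in these orders could be set.

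The genes with the most similar differences from Growing were sought for the 6 of the 10 that passed 2-fold in OIS, H3.3cs1 late or H3.3cs1 early. Likeness was the Euclidean distance over the 3 differences, which share the Growing library, among up to 9073 genes above 0 in all libraries and at 5 FPKM or more in 1. Nearest to EGR1 were IL4R, the interleukin 4 receptor chain (distance 0.24), SPRY4, a Sprouty inhibitor of RAS and ERK signalling (0.29), and CCDC71L (0.31). SPRY4 stood at 82.5 FPKM in OIS, 12.3 in H3.3cs1 late, 8.24 in H3.3cs1 early and 17.4 in Growing. Nearest to EGR3 were SPSB1, SPRY2, another Sprouty gene, and GNG11, a G protein subunit gene, at distances between 0.18 and 0.26. KLF2 lay nearest to CEMP1 (0.16), PPAP2B, a lipid phosphatase gene (0.29), and PDE5A, the gene of a cGMP phosphodiesterase (0.34). KLF4 lay nearest to ARSI, TSPAN10 and MARCH8, and the FLOT1,IER3 locus to COLEC10, RPE65 and QPCT, the last at a distance of 0.49. For EGR2, whose differences are small because its levels are low, RNF44, NSMF and ACAD8 were nearest.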

How the data were processed

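Poly(A) RNA of 4 IMR90 cultures was sequenced, 1 library per group. The authors deposited FPKM values, 1 per locus and library. Per the submitters' processing notes TopHat2 2.0.3, Bowtie2, Cufflinks 2.1.1 and hg19 were used, with no role or order given. How fragments were counted, whether strand was used and how libraries were scaled is not stated in the labels. The header words of each file name libraries, offset by 1 from the values, so each file was assigned by its sample record.

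The 2310 loci without a name were left out, 822 joined loci kept their joined names, and lines with the same symbol were summed. Differences used a pseudocount of 1, a filter at 1 FPKM in at least 1 library and a size rule of 2-fold (Python 3.11.15, pandas 2.3.3, numpy 2.4.6). FPKM without counts or replicates allows no count model, so no p-value was made.

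The 10 genes, the 11 related lists and the 4 marker lists were chosen with earlier results of these data known. Named from each list were up to 4 genes with the largest differences from Growing at 5 FPKM or more, and for each of the 10 past 2-fold the 3 nearest genes. SRF, DUSP8, PDGFB, NFKBIA, NFKB2, MEF2C, EGR4, WT1, CYR61, IER5L and the marker genes in the text were named after their values were seen. Motifs were searched on both strands in RefSeq promoter windows of GRCh38.p14, which is not the build of the files. The matches in the windows shown do not overlap, and the motifs were chosen with the values known. A gene of the TGF-beta response list is not reported here.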

Additional observations from a re-analysis of the deposited data

How the results depend on the processing

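Of 490 values of the 10 genes under the alternatives, 473 stayed on the same side of 2-fold, 10 fell under it, 7 passed it and none changed sign after being called. The pseudocount moved the counts most. With 0.1 in place of 1, 3 of the 10 genes were past 2-fold in H3.3cs1 late minus Growing, in place of 0, namely EGR2 (1.18), EGR3 (-1.65) and KLF10 (-1.01), and over all genes the counts were 1711 for H3.3cs1 late minus Growing, 1135 for H3.3cs1 early minus Growing and 1841 for H3.3cs1 late minus H3.3cs1 early. A pseudocount of 5 shrinks low genes by construction. It left 0 of the 10 genes past 2-fold in H3.3cs1 early minus Growing and 1 in H3.3cs1 late minus H3.3cs1 early, and over all genes 1062 for OIS minus Growing, 509 for H3.3cs1 late minus Growing, 315 for H3.3cs1 early minus Growing, 487 for H3.3cs1 late minus H3.3cs1 early and 1240 for OIS minus H3.3cs1 late. The counts as reported were 2107, 1095, 654, 1081 and 2400 in that order of comparisons. The rises of EGR1, EGR3 and the FLOT1,IER3 locus and the fall of KLF2 in OIS against Growing stayed past 2-fold under every alternative that gave a value. With joined loci left out IER3 has no value. No paired analysis was possible because each group has 1 library, and no library could be left out. Without counts, the depth behind low values such as those of EGR2 cannot be stated.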
